A study of Rattus norvegicus with 8 samples.

Results

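The cluster of miR-132 and miR-212 gives rise to 4 mature miRNAs, rno-miR-132-3p, rno-miR-132-5p, rno-miR-212-3p and rno-miR-212-5p, named without the species prefix from here on. These were taken by name from small RNA sequencing counts of the rat striatum and made up 4 of the 752 mature miRNAs in the table. All 4 passed the filter on low counts, which kept 507 miRNAs. The study compared 4 rats that self-administered saline with 4 rats that self-administered methamphetamine (METH), each giving 1 library. All 8 rats were wild type by their labels, and the methods of the study describe male Sprague-Dawley rats that had food training and jugular catheter surgery in both groups. METH or saline was infused on lever presses in daily sessions, and the rats kept were those with stable lever pressing over the last days. Rats are named by group and number, and the number only names a rat.

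Both hairpins of this cluster lie in tandem and are made from a shared primary transcript. Transcription of the locus is known to be driven by CREB, a transcription factor that responds to neuronal activity, calcium and neurotrophins. Each hairpin is cut into a duplex, and either strand of the duplex may be loaded into Argonaute, the protein that uses the strand as a guide to target mRNAs. In striatum, the cluster is known from work on cocaine self-administration.

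The 4 mature sequences are shown because the arms are compared by strand and by seed below, where the seed (bases 2 to 8 from the 5′ end, in capitals) is the part that pairs with targets. All 4 were matched by name in RefSeq, and the order of lines follows the locus on the plus strand of the GRCr8 assembly.
miR-212-5p: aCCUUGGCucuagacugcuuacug
miR-212-3p: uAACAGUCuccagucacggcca
miR-132-5p: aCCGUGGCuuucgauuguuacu
miR-132-3p: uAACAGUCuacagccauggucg
On GRCr8, these lie at chr10:60521771-60521794, chr10:60521811-60521832, chr10:60522055-60522076 and chr10:60522091-60522112, respectively. The counts themselves were made on the rn6 assembly. The arms of miR-212 are 16 bases apart, those of miR-132 are 14 bases apart, and 222 bases separate miR-212-3p from miR-132-5p. Mir212 and Mir132 are annotated as miRNA genes of their own. Their neighbours on GRCr8 are Hic1 on one side and the long noncoding RNA LOC120095261, followed by Ovca2, on the other.

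The 3p arms share the seed AACAGUC, which no other mature rat miRNA among the 693 names in the RefSeq table carries. Counted from the 5′ end, miR-132-3p and miR-212-3p differed at 5 of 22 positions, namely A10C, C14U, U17C, U20C and G22A, all of them outside the seed. The 5p arms do not share a seed. Over their first 22 bases without gaps they differed at 8 positions, and G4U falls in the seed. Each arm had its paralogue as the closest mature sequence, with at least 5 mismatches, so no near-identical miRNA shares their reads. Both 3p arms begin with U and both 5p arms with A. The Mir132 hairpin, shown with its arms in capitals to place the strands (chr10:60522033-60522133, GRCr8, plus strand), reads as follows.
Mir132: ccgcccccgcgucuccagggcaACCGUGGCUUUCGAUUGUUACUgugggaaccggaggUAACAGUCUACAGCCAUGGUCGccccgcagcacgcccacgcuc

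Total counts ranged from 12929302 to 27632443 per library. The neuronal markers of the tissue were high, since the summed level of 6 neuron miRNAs was 287926 to 496992 CPM. CPM is the count scaled to library size, with factors from the trimmed mean of M-values (TMM). The library of METH rat 4 stood apart on the first principal component of log2 CPM, at -21.5 against -2.83 to 7.29 in the others. Marker miRNAs of other cell types moved both ways in this rat. The 3 erythrocyte miRNAs in the table summed to 2817 CPM against 342 to 648 in the other rats, 99.6% of it miR-451-5p. The choroid plexus sum was 7132 against 2804 to 3580 CPM, 96.8% of it miR-204-5p, while miR-34c-5p and miR-34b-5p of the same list were at their lowest of all rats. The oligodendrocyte sum was 4492 against 2334 to 4051 CPM, 91.7% of it miR-219a-2-3p, with the other 2 members at their lowest. The vessel sum was 13865 against 10534 to 12082 CPM, with 2 of 4 members at their highest and 2 at their lowest. Among the neuron miRNAs, miR-9a-5p was at its highest and miR-124-3p and miR-138-5p at their lowest. The leukocyte and microglia sum was 688 against 1076 to 2094 CPM, 96.7% of it miR-150-5p. Of the 4 members, only miR-150-5p was at its lowest and 1 was at its highest. The pituitary and epithelial sum was 67966 against 16835 to 34009 CPM, 98.5% of it miR-7a-5p. No marker in these lists was at 0 in every library. In bulk tissue, fewer cells of a type and less RNA per cell cannot be told apart.

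The first question was how the levels of the 4 arms compare. The arms fell into an abundant pair, miR-132-5p and miR-212-3p, and a scarcer pair, miR-212-5p and miR-132-3p. The abundant pair therefore held opposite strands of the 2 hairpins. Mean levels over the 8 rats were 4185 ± 2833 CPM for miR-132-5p, 2566 ± 362 CPM for miR-212-3p, 512 ± 578 CPM for miR-212-5p and 410 ± 214 CPM for miR-132-3p (SD, n = 8). These corresponded to places 38, 52, 101 and 115 among the 507 tested miRNAs. The mean of miR-212-5p rested on saline rat 1 and was 323 CPM without it, below the 407 CPM of miR-132-3p over the same rats. The means of log2 CPM were 8.49 for miR-132-3p and 8.32 for miR-212-5p, so the order of these arms depended on the average used. The mature sequences are 22 to 24 bases long, so counts were compared without scaling for length. Counts per arm and library ranged from 1380 to 185963, and counting error alone is at most 2.69% of a value. It covers neither PCR copies nor unequal ligation of different sequences, whose part in the differences between arms was not tested.

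Levels were then compared within each rat as log2 ratios of counts, over 6 pairs of arms. The arm miR-132-5p exceeded miR-132-3p in 8 of 8 rats, by 10.4-fold as a geometric mean (log2 ratio 3.37 in favour of 5p, exact sign-flip permutation test over 8 rats, two-sided, adjusted p = 0.0117). For miR-212 the order was the opposite. Its 3p arm exceeded its 5p arm in 8 of 8 rats, by 7.97-fold (log2 ratio 3.00, exact permutation test, n = 8, adjusted p = 0.0117). Of the arms with the shared seed, miR-212-3p was 7.08-fold above miR-132-3p, again in 8 of 8 rats and with the same adjusted p in the exact test. It comes from an unadjusted p of 0.00781, the smallest that sign flips over 8 rats allow. The 5p arms differed by 11.7-fold, in favour of miR-132-5p in 8 of 8 rats (exact test, adjusted p = 0.0117).

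Within the abundant pair, miR-132-5p was above miR-212-3p in 7 of 8 rats, by 1.46-fold (exact permutation test, n = 8, adjusted p = 0.0188). The exception was saline rat 2, in which the counts were 64842 for miR-132-5p and 65875 for miR-212-3p. Within the scarcer pair, neighbours in the order of levels did not differ beyond their spread. The arm miR-132-3p was higher in 4 rats and miR-212-5p in the other 4, with a mean log2 ratio of 0.17 ± 1.45 (SD, n = 8, exact permutation test, adjusted p = 0.758). These orders are seen in the plot of levels by rat.

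**Figure D1:**
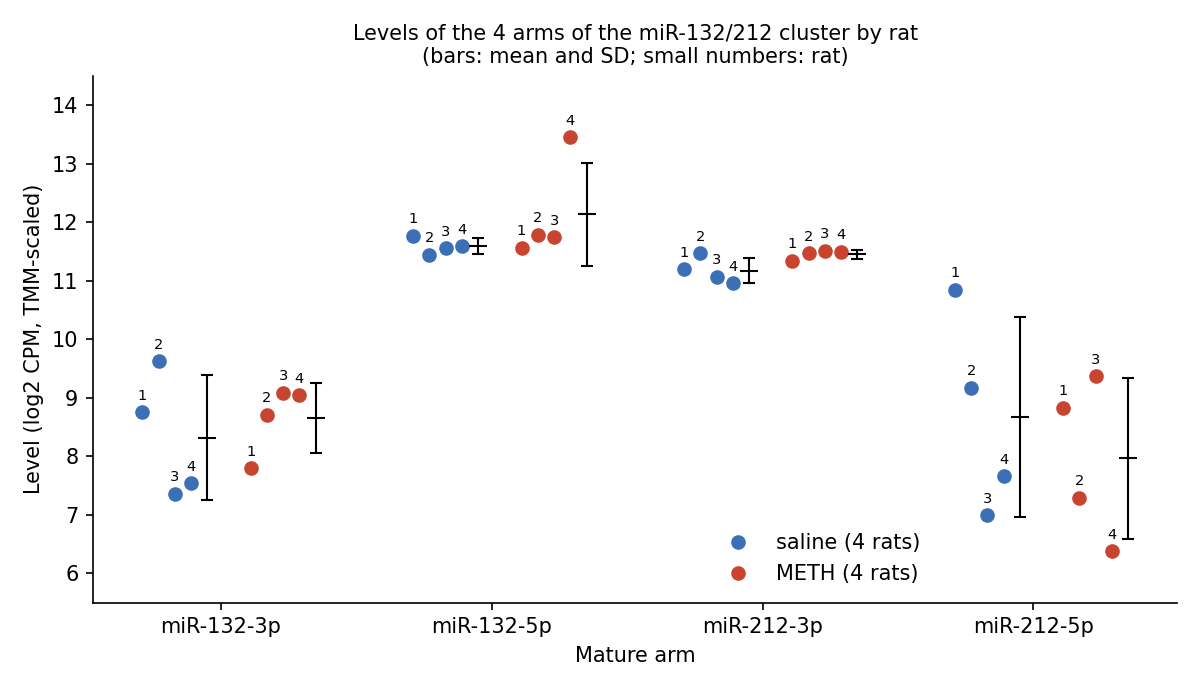
Level of each arm (log2 CPM, TMM-scaled, y axis) in 4 saline rats (blue) and 4 METH rats (red). Points are rats, small numbers name the rat, and black bars give mean and SD. The arms miR-132-5p and miR-212-3p lie above the other arms, and the widest scatter is that of miR-212-5p, from 82.9 to 1837 CPM.

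The next question was how steady the arm ratios were. The 3p to 5p ratio of miR-132 was below 0 on the log2 scale in every rat, and that of miR-212 above 0 in every rat. For miR-132, the log2 ratio was -3.01, -1.82, -4.20 and -4.05 in saline rats 1 to 4. In METH rats 1 to 4 it was -3.76, -3.08, -2.66 and -4.40. The 5p arm was thus 3.53-fold above the 3p arm in saline rat 2 and 21.2-fold above it in METH rat 4, the ends of the range. For miR-212, the log2 ratio was 0.35, 2.29, 4.08 and 3.30 in saline rats 1 to 4. In METH rats 1 to 4 it was 2.50, 4.17, 2.14 and 5.12. Saline rat 1 had nearly equal arms, with 52153 counts of 3p and 40969 of 5p, whereas in METH rat 4 the 3p arm was 34.9-fold higher. The ratio of miR-212 thus varied 27.4-fold among rats. This range rested on single rats at both ends, and was 14.2-fold without METH rat 4 and 7.89-fold without saline rat 1. For miR-132 the range was 3.36-fold without saline rat 2.

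**Figure D2:**
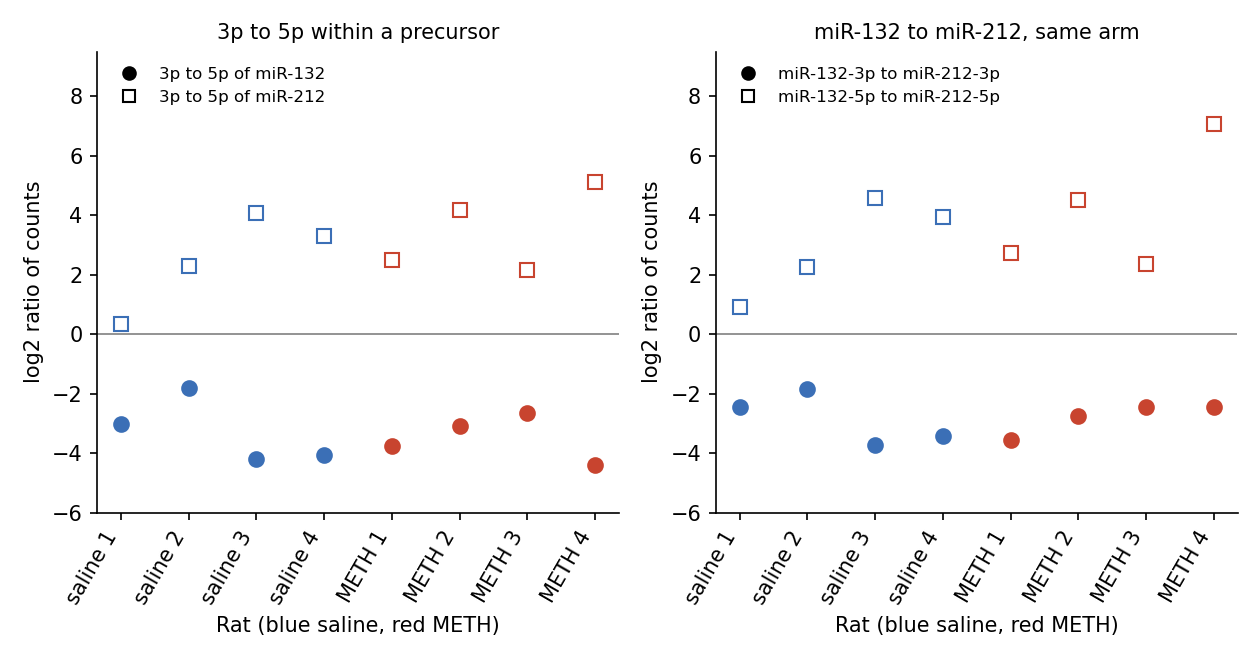
Log2 ratios of counts (y axis) in each rat (x axis, blue saline and red METH). Left, 3p to 5p within miR-132 (filled circles) and miR-212 (open squares). Right, miR-132 to miR-212 for the 3p arms (filled circles) and the 5p arms (open squares). The 2 series in each panel stay on opposite sides of 0 in all 8 rats, and METH rat 4 has the highest ratio of 5p arms, 7.07.

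Such spread was set beside the other precursors with both arms tested, 174 in all. The within-group SD of the log2 arm ratio was 1.51 for miR-212 and 0.95 for miR-132, against a median of 0.63. The value of miR-212 ranked 7 among the 174, and that of miR-132 ranked 38. Among the 25 precursors with both arms at a mean of 100 CPM or more, miR-212 ranked 1 and miR-132 ranked 4, with miR-485 and miR-29c between them at 1.28 and 1.05. Leaving out METH rat 4, the SD of miR-212 was 1.42 and ranked 3 among the 174. Without saline rat 1 it was 1.23 and ranked 16. For miR-132, the SD was 0.72 and ranked 75 without saline rat 2, so its place rested on that rat. A log2 ratio of 3.00 was not extreme in itself, as the median size over all 174 precursors was 3.81. The 3p arm was the higher arm in 46.0% of them.

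**Figure D3:**
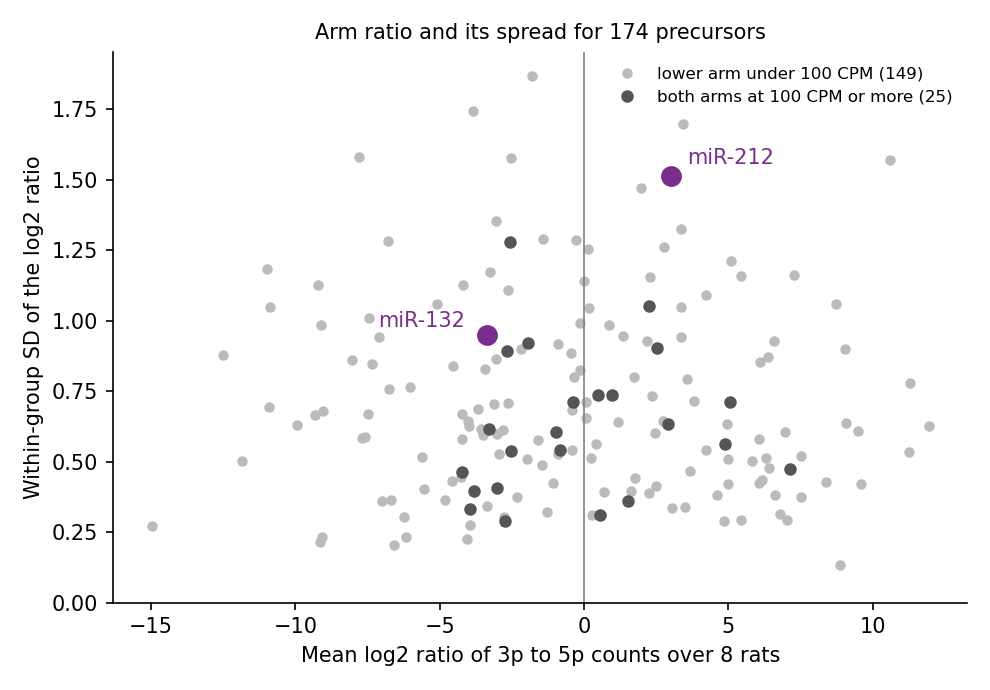
Mean log2 ratio of 3p to 5p counts over 8 rats (x axis) and its within-group SD (y axis) for 174 precursors. Grey points have a scarcer arm under 100 CPM, dark points have both arms at 100 CPM or more, and purple points are miR-132 and miR-212. The purple points lie on opposite sides of 0, at -3.37 and 3.00, both above the median SD of 0.63.

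The main comparison of the study was METH against saline. In the quasi-likelihood test of edgeR, 0 of the 4 arms had an adjusted p under 0.05. Over all 507 miRNAs the share called was 0% as well (0 miRNAs). At an unadjusted p under 0.05, 0 of the 4 arms passed, where 5.72% of all tested miRNAs (29) did. A change of at least 1.5-fold was estimated for miR-132-5p and miR-212-5p, against 17% of all miRNAs. None of the 4 arms had groups without overlap in log2 CPM, whereas 3.16% of all miRNAs did (1.78% with METH higher and 1.38% with METH lower). DESeq2 called 8 of the 507 miRNAs (1.58%) and the edgeR likelihood ratio test 7 (1.38%), and none of these was an arm of this cluster. In the same comparison, all 10 pituitary and epithelial miRNAs had positive log2 fold changes, with a median of 3.60, or 3.69 without METH rat 4. None of these was called in the quasi-likelihood test of edgeR (lowest adjusted p = 0.105), but all 8 miRNAs called by DESeq2 and all 7 called by the likelihood ratio test were members of this list. Nearly all of the summed level was miR-7a-5p, with a log2 fold change of 0.29. Without miR-7a-5p, left out after its level was seen, the sum was 198 to 286 CPM in the saline rats. In the METH rats it was 389 to 2520 CPM, so the groups did not overlap. The list includes miRNAs that the study had reported as raised by METH in these same libraries. The lack of overlap is therefore not independent of that report. The part of these miRNAs in the values of the arms was not tested.

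The arm miR-212-3p had the least scatter. Its levels in saline rats 1 to 4 were 2338, 2827, 2150 and 1992 CPM. In METH rats 1 to 4 they were 2586, 2825, 2919 and 2890 CPM. With TMM scaling, each METH rat was above 3 of the saline rats, and saline rat 2 overlapped the METH group. With library totals, METH rat 4 was at 2214 CPM, below saline rat 1 at 2489 CPM. METH against saline gave a log2 fold change of 0.27 ± 0.19 (SE), or 1.21-fold, with a 95% interval from -0.16 to 0.69 (edgeR, adjusted p = 0.785). In the exact permutation test over the 70 assignments of rats, p was 0.0857. The within-group SD of its log2 CPM was 0.16, and 2.96% of the tested miRNAs had a smaller one.

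The arm miR-132-3p is the strand to which most described functions of miR-132 belong. It was measured at 431, 788, 164 and 186 CPM in saline rats 1 to 4, and at 222, 419, 543 and 527 CPM in METH rats 1 to 4. Saline rat 2 had the highest level of all rats and saline rats 3 and 4 the lowest, so the saline group spanned the METH group. Its log2 fold change was estimated at 0.13 ± 0.49 (SE), with a 95% interval from -0.97 to 1.22 (edgeR, adjusted p = 0.977). Its sign depended on the scaling, at -0.099 with library totals in place of TMM, a setting that moved the median over all miRNAs from -0.02 to -0.12. Without saline rat 2, the highest saline rat, the log2 fold change was 0.75. The sign turned without saline rat 3 (-0.12), without saline rat 4 (-0.14) or without METH rat 3 (-0.036).

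For miR-132-5p, the levels were 3478, 2782, 3009 and 3077 CPM in saline rats 1 to 4. In METH rats 1 to 4 they were 3020, 3530, 3422 and 11165 CPM. METH rat 4 was far above all others, and METH rats 1 to 3 lay among or just above the saline rats. The log2 fold change was 0.78 ± 0.41 (SE), or 1.71-fold, with a 95% interval from -0.13 to 1.68 (edgeR, adjusted p = 0.785). Without METH rat 4 it was 0.11. The high value in this rat did not rest on the scaling, since with library totals alone it was 8554 CPM, against 2987 to 3704 CPM in the other rats. The marker levels that were also apart in this rat are given above, and their part in this value was not tested.

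The arm miR-212-5p scattered most. Its levels were 1837, 578, 127 and 202 CPM in saline rats 1 to 4, and 456, 157, 660 and 82.9 CPM in METH rats 1 to 4. The highest level was in a saline rat and the lowest in METH rat 4, with the other 6 rats interleaved. The log2 fold change was -1.02 ± 0.85 (SE), with a 95% interval from -2.90 to 0.86 (edgeR, adjusted p = 0.822). Without saline rat 1 it was 0.19, so the direction rested on that rat. The within-group SD of its log2 CPM was 1.56, against a median of 0.47 over all tested miRNAs, and 99.0% had a smaller SD. At this spread, the interval allows a decrease or an increase.

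The cluster as a whole was then compared. Summed over the 4 arms, the level was 6492 ± 1281 CPM in the saline group and 8856 ± 3907 CPM in the METH group (SD, n = 4 each). The difference in log2 CPM was 0.38 (exact permutation test, two-sided, p = 0.314), and it fell to 0.12 without METH rat 4. This rat had 14665 CPM, of which miR-132-5p made up 76.1%, whereas in the other 7 rats that arm made up 39.9% to 56.4%. The cluster took 0.535% to 1.12% of the counts of a library.

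The arms that share the seed AACAGUC can be added, because a seed pairs with the same short match in a target. Their total was 2769, 3615, 2314 and 2178 CPM in saline rats 1 to 4. In METH rats 1 to 4 it was 2808, 3244, 3462 and 3417 CPM. With TMM scaling, every METH rat was above saline rats 1, 3 and 4, and saline rat 2 was above every METH rat. This order depended on the scaling. With library totals, both arms were lower in METH rat 4 than in saline rat 1. They were at 404 against 459 CPM for miR-132-3p and 2214 against 2489 CPM for miR-212-3p. The mean total with TMM scaling was 2719 ± 648 CPM in the saline group and 3233 ± 298 CPM in the METH group (SD, n = 4 each). The log2 difference of 0.27 was within the spread of the rats (exact permutation test, p = 0.229). The difference depended on the scaling. With library totals it was 0.15 (exact permutation p = 0.571), and with RLE size factors, another scaling, 0.33 (exact p = 0.171). With upper quartile scaling, the difference was 0.37 and the exact p was 0.0286, the smallest that 70 assignments allow. When saline rat 2 was left out, the difference was 0.44 with the same exact p. That rat alone kept the groups from separating, so this p was fixed by the omission and adds no support. This total was chosen after the values of its arms had been seen.

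Ratios within a library do not depend on scaling, and 4 of them were compared between the groups. The 3p to 5p log2 ratio of miR-132 was -3.27 ± 1.10 in the saline group and -3.47 ± 0.77 in the METH group (SD, n = 4 each). The difference of -0.21 turned to 0.28 without saline rat 2 and to 0.10 without METH rat 4. That of miR-212 was 2.50 ± 1.61 and 3.49 ± 1.40, a difference of 0.98, which fell to 0.26 without saline rat 1. The log2 ratio of miR-132-3p to miR-212-3p was -2.85 ± 0.87 and -2.79 ± 0.52, a difference of 0.060. It turned to -0.23, -0.13, -0.062 and -0.053 without saline rat 3, saline rat 4, METH rat 3 and METH rat 4, respectively. For miR-132-5p to miR-212-5p the values were 2.92 ± 1.65 and 4.17 ± 2.15, a difference of 1.25, which fell to 0.28 without METH rat 4. Exact permutation p-values ranged from 0.371 to 0.886 and were 0.8 to 0.886 after adjustment over the 4 ratios. None of these ratios had groups without overlap, which was seen for 2.3% of the 174 precursors in the 3p to 5p ratio (4 precursors).

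Since the arms stem from a shared transcript, their levels were correlated across the 8 rats, over 6 pairs. The 3p arms gave the highest correlation. Their Pearson r was 0.805 (exact permutation p = 0.0225, adjusted p = 0.135, n = 8) and their Spearman coefficient was 0.833 (exact p = 0.0154, adjusted p = 0.0923). Neither passed 0.05 after adjustment over the 6 pairs. Without saline rats 3 and 4, which had the lowest levels of both 3p arms, r was 0.465 (exact p = 0.379, n = 6), so the relation over all rats rested in part on these rats. It was 0.670 without saline rat 3 alone and 0.677 without saline rat 4 alone. When deviations from the group means were used, r was 0.937 (exact permutation p = 0.00211, adjusted p = 0.0126, n = 8). This p makes no allowance for the fitted group means.

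The other 5 pairs had Pearson r values from -0.486 to 0.378 and adjusted p-values of at least 0.634 in the exact test (n = 8). Arms of the same hairpin were among them, with r = 0.294 (Spearman 0.143) for miR-132 and r = 0.038 (Spearman 0.095) for miR-212. The value for miR-212 depended on the scaling, at 0.505 with library totals (exact permutation, adjusted p = 0.412), and was 0.313 on deviations from group means. The negative value, for the 5p arms, turned to 0.219 without METH rat 4. Leaving out the same rat gave 0.069 for the arms of miR-132, and moved r of miR-132-3p with miR-212-5p from 0.318 to 0.569. The scatter plots of arm pairs show the 3p and the 5p pair.

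**Figure D4:**
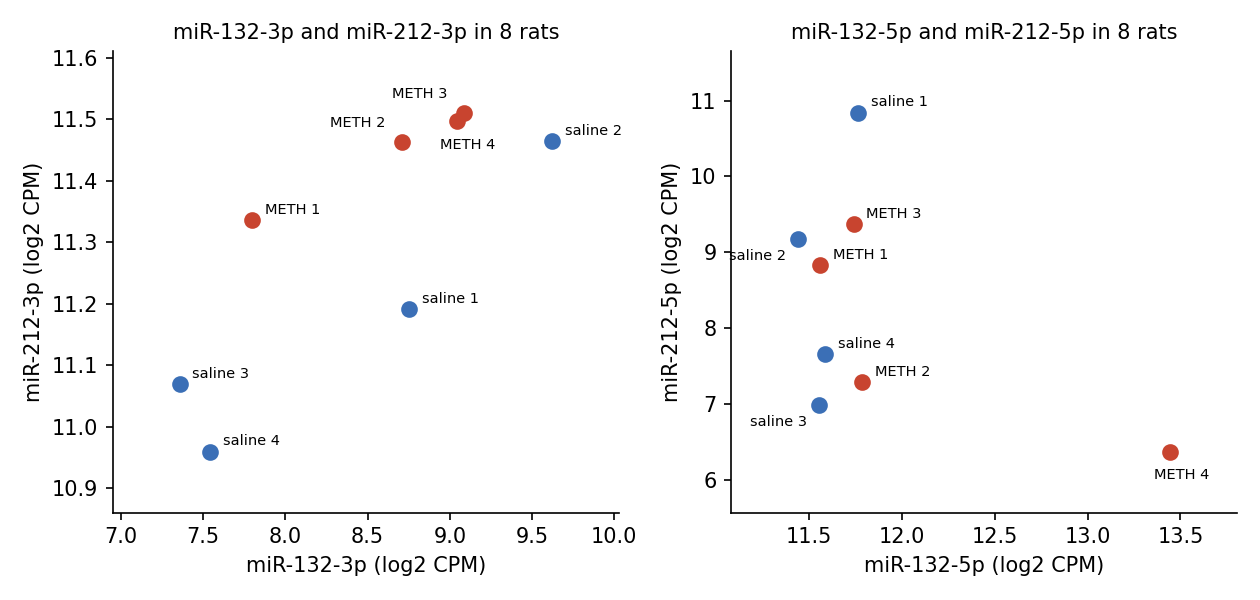
Levels (log2 CPM) of the 3p arms (left) and the 5p arms (right) in 8 rats, miR-132 on the x axis and miR-212 on the y axis, with saline in blue and METH in red. The 3p arms rise together (r = 0.805), with saline rats 3 and 4 at the low end. On the right, METH rat 4 lies alone at 13.4 log2 CPM of miR-132-5p and 6.37 of miR-212-5p.

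For each arm, the 3 tested miRNAs with the most similar pattern over the 8 rats were listed by Pearson r of log2 CPM, as a description. All values share the same libraries and scaling. The nearest to miR-132-3p were miR-181b-5p (r = 0.921), miR-378a-3p (r = 0.920) and miR-138-2-3p (r = 0.888). Without METH rat 4, these remained at 0.964, 0.956 and 0.878. The nearest to miR-212-3p were miR-201-5p (r = 0.878), miR-365-5p (r = 0.825) and miR-199a-3p (r = 0.824), the first 2 at a mean under 1 CPM. Without METH rat 4, these were at 0.876, 0.900 and 0.862. Its fellow miR-132-3p came at place 5 of 506, at r = 0.805, and in the list for miR-132-3p the arm miR-212-3p was at place 8.

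The nearest to miR-132-5p were miR-211-5p (r = 0.989), miR-369-5p (r = 0.986) and miR-494-5p (r = 0.985). Without METH rat 4, r fell to 0.769, 0.498 and 0.848, so this likeness rested in part on that rat. Of these, miR-211-5p belonged to the choroid plexus list that was high in the same rat. The nearest to miR-212-5p were miR-760-3p (r = 0.943), miR-26b-3p (r = 0.916) and miR-532-3p (r = 0.902). Their r values were 0.929, 0.913 and 0.863 without METH rat 4. No arm of this cluster was among the 3 nearest of another.

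Other miRNAs whose levels follow neuronal activity were examined as a list of 14, all of them tested. In the edgeR test, 0 of the 14 rose and 0 fell at an adjusted p under 0.05, where 0 of all 507 miRNAs were called. Adjusted p-values of the list ranged from 0.447 to 0.984 in edgeR. Log2 fold changes were positive for 7 and negative for 7, with a median of -0.03 against -0.02 over all tested miRNAs. Leaving out METH rat 4 gave 6 positive and 8 negative values. The members of the Dlk1-Dio3 locus, whose transcription is driven by the activity-dependent factor Mef2, had values of -0.42 for miR-134-5p, -0.27 for miR-329-3p, 0.22 for miR-379-5p and -0.25 for miR-381-3p. The neuronal miRNAs miR-124-3p, miR-9a-5p and miR-138-5p were at -0.13, 0.32 and -0.20. Without METH rat 4, miR-124-3p was at 0.11, miR-9a-5p at -0.0042 and miR-379-5p at -0.16, so these signs turned. The highest value was 0.47 for miR-181a-5p, which was 0.030 without METH rat 4. The lowest was -1.31 for miR-188-5p, a miRNA linked to synaptic plasticity, which stayed the lowest without that rat. The latter was the only list member with an unadjusted p under 0.05 in edgeR (adjusted p = 0.447, exact permutation p = 0.0286). This count of 1 in 14 stands beside 5.72% of all tested miRNAs. It was also the only member whose groups did not overlap, at 2.15 to 4.89 CPM in the saline group and 0.42 to 2.02 CPM in the METH group, where 3.16% of all miRNAs had groups without overlap.

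The remaining members were miR-29a-3p, miR-29b-3p, miR-146a-5p, miR-184 and miR-34a-5p, with log2 fold changes from -0.10 to 0.36. Of these, miR-29b-3p turned to 0.099 and miR-184 to -0.088 without METH rat 4. The 4 arms of miR-132 and miR-212, at -1.02 to 0.78, therefore lay within the range of this list apart from miR-132-5p.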

How the data were processed

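Small RNA libraries of striatum were made by the authors with a kit that carries unique molecular identifiers (UMIs), 1 per rat. The submitters' processing notes name cutadapt 1.18 (an adapter trimmer), STAR 2.7.0e (an aligner), featureCounts of Subread 1.6.4 (a read counter) and the rn6 build. The deposited values are raw counts per mature miRNA. Merging of reads by UMI, the miRNA annotation and the rule for multiple alignments are not given in the sources used here, so PCR copies may be counted. Total counts of 12929302 to 27632443 give the members at least 1380 counts each.

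Groups were taken from the treatment labels. Counts were filtered with filterByExpr (minimum count 10), scaled by TMM and fitted in edgeR 4.0.16 (R 4.3.3) by quasi-likelihood with a 2-group model. Benjamini-Hochberg adjustment covered all 507 miRNAs. The SE of a log2 fold change was its size over the root of the F statistic. Per-rat log2 CPM used a prior count of 2, and ratios a pseudocount of 0.5 counts. Group differences of single values used exact permutation over 70 assignments of 8 rats, two-sided, with a smallest p of 0.0286. Correlations used all pairings, and arm pairs all sign flips over the 8 rats. With 4 rats per group, p-values measure the spread between these rats.

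Alternatives were 3 other scalings, 2 other filters, DESeq2 1.42.0, the likelihood ratio and legacy quasi-likelihood tests of edgeR, limma 3.58.1 voom with sample quality weights, a block on rat number, a pseudocount of 5, and each library left out in turn. Leaving out libraries for mean levels, the spread of arm ratios and the marker lists, and the shared-seed total, were chosen after seeing the data. The arms, the list of activity-regulated miRNAs, the marker lists and the naming rule (the arms, that list, seed sharers and the 3 nearest patterns per arm) were chosen with earlier results of these data known. One marker name, miR-486, did not match a row of the table. Sequences come from the RefSeq table for GRCr8, in which the Mir212 hairpin was not used here.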

Additional observations from a re-analysis of the deposited data

Results flagged for a closer look

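In 18 groups of 4 rats, made up of 9 measures of the cluster in each of the saline and METH groups, a rat far from the other 3 was looked for with the 95% limit of Dixon. Chance alone gives about 1 in 20. There was 1 such case, the level of miR-132-5p in METH rat 4, which was 13.4 on the log2 CPM scale. The nearest METH rat was at 11.8, so the gap took up 0.880 of the whole range, against a limit of 0.829. In the same rat miR-212-5p was the lowest of all rats, at 6.37 log2 CPM, while miR-132-3p and miR-212-3p were within the range of the other rats.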

How the results depend on the processing

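The 5 ratios between arms with an adjusted p under 0.05 kept their direction and stayed under it with a pseudocount of 5 counts and without any 1 library, with log2 ratios from -3.59 to -3.22 for miR-132-3p to miR-132-5p, -2.96 to -2.70 for miR-132-3p to miR-212-3p, 0.35 to 0.63 for miR-132-5p to miR-212-3p, 3.04 to 3.92 for the 5p arms and 2.69 to 3.37 for miR-212-3p to miR-212-5p. The ratio of miR-132-3p to miR-212-5p, 0.17 in all rats, ranged from -0.18 to 0.50 and was at -0.0062 without METH rat 2.

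No arm passed an adjusted p of 0.05 under any of the 10 other settings or without any 1 library. The count over all miRNAs, 0 in the main test, was 3 with upper quartile scaling, 8 with DESeq2 and 7 with the likelihood ratio test, and 0 to 5 without 1 library, the 5 without METH rat 1. Without 1 library, the log2 fold change ranged from -0.14 to 0.75 for miR-132-3p, 0.11 to 0.97 for miR-132-5p, 0.18 to 0.40 for miR-212-3p and -1.55 to 0.19 for miR-212-5p. The direction turned for miR-132-3p with library totals (-0.099) and for miR-212-5p with limma voom (0.074), and the cause was not tested. With limma voom, the values of miR-132-3p and miR-132-5p were 0.71 and 0.24. In the list of activity-regulated miRNAs, 0 were called with library totals or without any 1 library. Differences in ratios ranged from -0.52 to 0.28 for 3p to 5p of miR-132, 0.26 to 1.51 for miR-212, -0.23 to 0.40 for the 3p arms and 0.28 to 1.85 for the 5p arms. Those of the summed level ranged from 0.12 to 0.53, and those of the shared-seed total from 0.15 to 0.44. For that total, the exact permutation p was 0.0286 without saline rat 2, where the omission itself left groups without overlap. It was also 0.0286 with upper quartile scaling, at a difference of 0.37. With library totals the difference was 0.15 (exact p = 0.571), and with RLE size factors 0.33 (exact p = 0.171).

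The correlation of the 3p arms ranged from 0.670 to 0.874 without 1 library and was 0.937 on deviations from group means. Without the 2 rats farthest from the median of the first arm, signs turned for miR-132-3p with miR-212-5p (-0.017) and the arms of miR-212 (-0.671), both without saline rats 3 and 4, and for the 5p arms (0.435), without METH rat 4 and saline rat 2. With library totals, the sign turned for miR-132-5p with miR-212-3p (-0.203). Without 1 library, the 5p arms ranged from -0.598 to 0.219 and the arms of miR-212 from -0.205 to 0.315. The cause was not tested for these.

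The replicate block on rat number gave 0 calls. Rats share only a number, and the correlations of same-numbered deviations were -0.339, -0.155, -0.154 and -0.357. With 8 libraries, the spread between rats limits these comparisons. Counting error is at most 2.69% of a value, but it does not cover PCR copies. With 1 library left out, the exact test over groups had few assignments, so its p says little about stability.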
